A study of Mus musculus with 4 samples.

Results

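The regions described here are the accessible chromatin regions that the deposited table links to a gene with a name and with a gene type other than protein_coding. They were chosen from the annotation columns alone, with chromosomes M, X and Y left out, which removed 0 of them. There are 24 such regions, linked to 18 genes, of 35019 regions in the table. The regions were measured by ATAC-seq, in which the Tn5 transposase inserts sequencing adapters into open chromatin, in quiescent satellite cells, the resting muscle stem cells, sorted by flow cytometry. The mdx mice carry a mutation of Dmd and model muscular dystrophy, and wild type mice are the controls. 2 libraries per group were analysed here, and the design text names 3 mice per condition. The sources used here give no age, sex or strain and no sorting markers. No label ties a library to an animal of its own. The p-values therefore reflect the spread between libraries, in part borrowed from all tested regions, and that spread may be technical.

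Long intergenic noncoding RNAs (lincRNAs) are transcripts without a long reading frame that are made from their own promoters, and for most of them no function is known. A pseudogene is a copy of a gene, or a gene itself, whose reading frame has been broken. A polymorphic pseudogene is broken in the reference strain and intact in other strains, and a processed pseudogene is a copy of a spliced messenger RNA put back into the genome. A processed transcript is a transcript for which no reading frame was annotated, and TEC marks a locus still to be checked by experiment. An accessible region at such a locus can be a promoter or an enhancer of the locus itself or of a neighbouring gene.

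By deposited gene type, 13 regions belonged to 9 lincRNA genes, 6 to 4 polymorphic pseudogenes, 2 to 2 processed transcripts, and 1 each to a processed pseudogene, a transcribed processed pseudogene and a TEC locus. The type did not always hold in a second annotation. RefSeq (GRCm38.p6) lists 14 of the 18 genes at an overlapping position, 4 as lncRNA, 4 as transcribed pseudogene, 2 as pseudogene and 4 as protein_coding. The 4 protein-coding ones are Zswim6, Ifi30, Dbpht2 and Gm5784, which hold 6 of the 24 regions, so the name noncoding applies to these only by the deposited type. Gm5444, Gm28465, 4930408O17Rik and Gm9978 were not matched. None of the 42 symbols of well-known noncoding RNAs that were looked up by name, among them H19, Malat1 and Meg3, is among the 18 gene names. Also, 0 of the 18 names are those of microRNA or small nucleolar RNA genes. A further 2876 autosomal regions are linked to genes of types other than protein_coding that carry no name. These could not be searched by symbol, so the lookup does not show which of the RNAs lack a region. The 24 regions lie on 8 chromosomes, 10 of them on chromosome 12 and 4 on chromosome 13.

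The regions take several positions relative to the deposited span of their gene. 10 lie before its start, 6 span the start, 6 lie inside the gene and 2, those of Casp16-ps and Fabp3-ps1, lie past its end. 13 regions come within 1 kb of the start of the linked gene and 11 do not. 9 regions overlap a RefSeq gene other than the linked one. Those of 4930408O17Rik lie in Clmn, that of Cxcl11 in Art3, that of Fabp3-ps1 in Ttc41 and that of Gm3086 in Atl1, all protein-coding genes, and that of Casp16-ps overlaps the transfer RNA gene n-TRccg2. Those of Ifi30 and Gm9978 and the region before the start of Dbpht2 overlap a lncRNA gene. 4 regions, those of Zswim6, Ifi30 and Gm5784, have a RefSeq protein-coding start within 1 kb, in each case that of the linked gene itself.

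The RefSeq table holds a promoter window, 250 bases before to 50 bases after the start, for 7 of the 18 genes. In 4 of them a region reaches into the window, and these are printed because they show what kind of sequence is open there. Each is given 5′ to 3′ on the strand of the gene, from GRCm38.p6, whose reference strain is not stated to be that of these mice. Capitals mark matches, on either strand, to any of 6 motifs. The first is the TATA box, searched as TATAAA, which the basal transcription machinery binds. The second is the CCAAT box, named by its letters. The third is the GC box of Sp1 factors, searched as GGGCGG. The fourth is an E-box of the kind that Myc and USF bind, searched as CACGTG. The fifth is the interferon-stimulated response element, given by name and searched as a pair of GAAA with any 2 bases between them. The sixth is the AP-1 site, searched as TGANTCA. No matches overlap in the windows printed.
Zswim6, chr13:107890015-107890314, minus strand: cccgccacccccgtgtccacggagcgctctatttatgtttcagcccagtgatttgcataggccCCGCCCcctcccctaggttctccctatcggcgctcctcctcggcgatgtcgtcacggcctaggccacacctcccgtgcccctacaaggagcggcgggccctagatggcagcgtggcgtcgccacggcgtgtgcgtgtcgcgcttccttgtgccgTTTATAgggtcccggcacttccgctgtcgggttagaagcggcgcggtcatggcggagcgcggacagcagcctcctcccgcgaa
Ifi30, chr8:70766614-70766913, minus strand: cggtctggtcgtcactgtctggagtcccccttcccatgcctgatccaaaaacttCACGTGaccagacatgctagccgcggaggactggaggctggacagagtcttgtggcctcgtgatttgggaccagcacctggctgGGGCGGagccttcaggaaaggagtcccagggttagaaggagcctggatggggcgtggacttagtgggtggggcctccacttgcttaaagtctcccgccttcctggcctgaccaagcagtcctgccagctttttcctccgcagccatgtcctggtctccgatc
Gm5784, chr12:19387620-19387919, plus strand: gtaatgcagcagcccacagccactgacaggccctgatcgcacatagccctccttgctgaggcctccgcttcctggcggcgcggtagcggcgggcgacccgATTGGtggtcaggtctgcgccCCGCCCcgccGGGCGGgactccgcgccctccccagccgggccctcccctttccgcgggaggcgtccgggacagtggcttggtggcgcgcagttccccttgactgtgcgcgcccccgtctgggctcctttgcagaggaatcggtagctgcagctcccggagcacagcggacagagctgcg
D830013O20Rik, chr12:73409514-73409813, minus strand: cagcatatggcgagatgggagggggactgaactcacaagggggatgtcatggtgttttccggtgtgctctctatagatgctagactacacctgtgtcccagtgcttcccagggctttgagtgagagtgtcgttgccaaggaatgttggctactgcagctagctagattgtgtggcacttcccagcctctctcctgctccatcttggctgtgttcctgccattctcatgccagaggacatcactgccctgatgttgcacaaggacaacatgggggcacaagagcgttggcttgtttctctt

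The windows of Zswim6 and Gm5784 are rich in CpG, with 34 and 30 CpG and a GC content of 67.0% and 71.3%, against medians of 7 CpG and 52.7% over the 32851 windows of the table. The Zswim6 window holds 1 TATA box match, present in 13.6% of all windows, and 1 GC box match, present in 35.7%. The Gm5784 window holds 2 GC box matches and 1 CCAAT match, which 37.4% of windows hold. The Ifi30 window, with 11 CpG, holds 1 CACGTG match (7.15% of windows) and 1 GC box match, and 0 matches to the interferon-stimulated response element (3.44%) or the AP-1 site (7.81%). The D830013O20Rik window, with 4 CpG and a GC content of 53.3%, holds 0 matches to any of the 6 motifs. A match or its lack describes these letters only.

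Each deposited value, called scaled reads here, is the read number of a region after multiplication by the authors' factor for that library and rounding. In reads before that step the listed regions held 3208479 and 3607633 for mdx, against 3693096 and about 8165050 for wild type. The share of scaled reads outside the mitochondrial chromosome that fell in regions within 1 kb of a linked start was 52.76% and 57.21% in mdx and 64.15% and 61.09% in wild type. Regions linked to 8 of 8 satellite cell markers, Pax7 and Myf5 among them, summed to 1492 and 1335 scaled reads in mdx, against 1544 and 1500 in wild type. Regions of 6 of 8 fibro-adipogenic progenitor markers (interstitial connective tissue cells) summed to 427 and 427 in mdx against 282 and 323 in wild type. Those of 2 of 6 myofibre markers summed to 184 and 180 in mdx against 68 and 104 in wild type, and 1 of these, that of Casq1, rose. The endothelial list had 1 of 6 markers (152 and 131 in mdx, 131 and 146 in wild type), the leukocyte list 1 of 7 (19 and 21 in mdx, 9 and 15 in wild type), and the Schwann cell list 1 of 4 (267 and 236 in mdx, 199 and 212 in wild type). Pecam1, Cdh5, Ptprc, Cd3e, Sox10, Acta1 and Ckm have 0 linked regions. The part of the promoter share or of these markers in the results below was not tested.

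**Figure D1:**
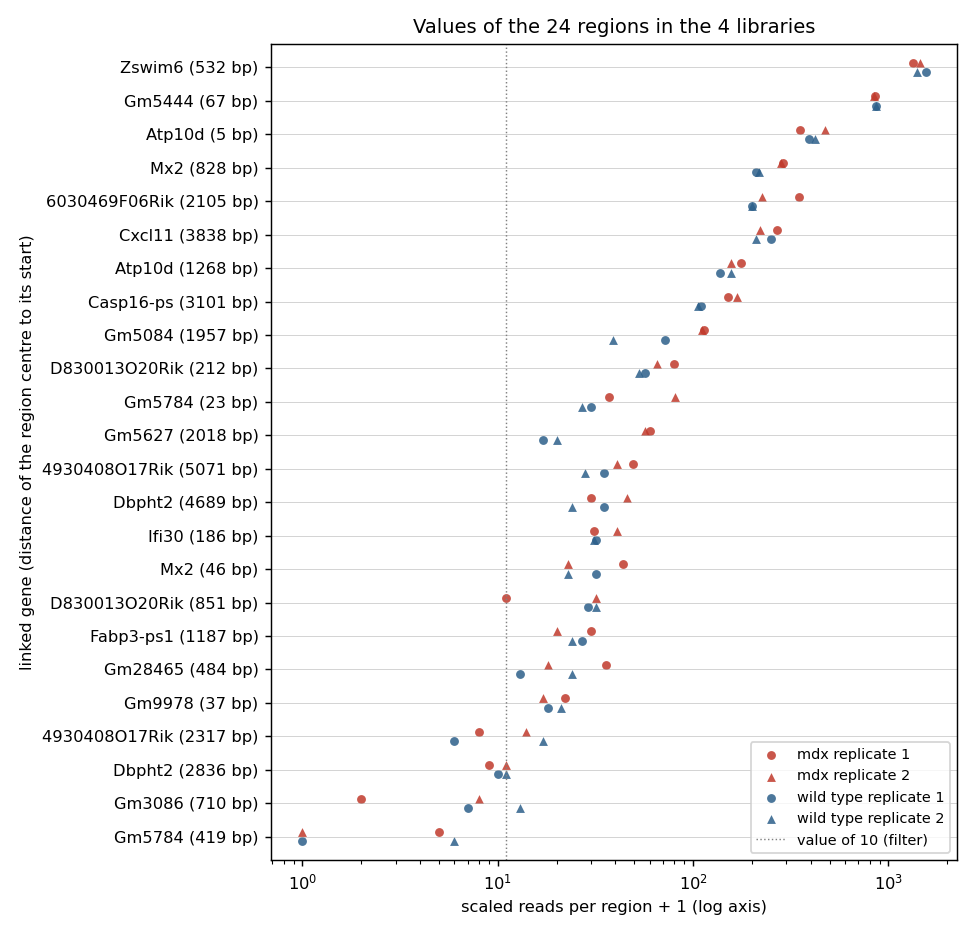
Scaled reads plus 1 (horizontal log axis) of the 24 regions, 1 point per library, with the linked gene and the distance of the region's centre to its start on the vertical axis. The Zswim6 region, at 1331 to 1560 scaled reads, and the Gm5444 region, at 839 to 865, are the highest. The mdx points lie to the right of the wild type points in 9 regions, Gm5627 and Gm5084 among them, against 26.8% of all tested regions.

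Per kb of region the 24 levels ran from 8.36 to 1427.0 scaled reads, with a median of 162.2 against 152.1 over all 35019 regions. The most accessible was the start of Gm5444, a lincRNA gene, on chromosome 13 from 4771284 to 4771883, at 1427.0 scaled reads per kb. It held 855 and 839 scaled reads in mdx, against 860 and 865 in wild type. The mdx libraries lay just below the wild type ones, and the difference did not pass (log2 fold change -0.03, SE 0.14; limma, adjusted p = 0.933).

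The next was the start of Zswim6, which encodes a zinc finger protein with a SWIM domain. Its region is also the widest, 1367 bp on chromosome 13 from 107889912 to 107891279, at 1049.2 scaled reads per kb. It held 1331 and 1445 scaled reads in mdx, against 1560 and 1401 in wild type, and the groups overlapped. The difference did not pass (log2 fold change -0.09, SE 0.13; limma, adjusted p = 0.715). These 2 regions were the best measured, with 619 to 2847 recovered reads per library.

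At the low end, the region inside Gm5784 held 4 and 0 scaled reads in mdx, against 0 and 5 in wild type, from 3, 0, 0 and about 10 reads. The Gm3086 region, before the start of a transcribed processed pseudogene, held 1 and 7 in mdx and 6 and 12 in wild type. These 2 regions did not reach a value of 10 in 2 libraries and were not tested, which left 22.

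In mdx, 1 of the 22 tested regions rose and 0 fell, by limma on log2 of scaled reads plus 1, with adjusted p-values under 0.05 taken as passing. Among all 33161 tested regions 4.18% passed, 3.3% higher and 0.881% lower. At an unadjusted p under 0.05, 4 of the 22 were higher and 0 lower, against 13.8% and 9.15% of all tested regions. Voom on the recovered reads called 2 higher and 0 lower, and more of the whole table too, 4.67% higher and 1.35% lower. The groups did not overlap in 9 regions that were higher in mdx and in 1 that was lower, against 26.8% and 25.9% of all tested regions.

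The region that rose lies before the lincRNA gene Gm5627, on chromosome 9 from 102737517 to 102737743, with its centre 2018 bp from the gene's start. It held 59 and 56 scaled reads in mdx, against 16 and 19 in wild type. Both mdx libraries lay well above both wild type libraries, at a mean of 57.5 ± 2.12 in mdx and 17.5 ± 2.12 in wild type (SD, n = 2 each). This is a 3.17-fold difference (log2 fold change 1.67, SE 0.40; limma, adjusted p = 0.0388). The recovered reads were 43 and 48 in mdx and 13 and about 39 in wild type, so the counting error is largest in wild type replicate 1. The call ended with no filter on low values (limma, adjusted p = 0.0697, against 0.00484 to 0.0456 under the other settings with all libraries), and fits without 1 of the 4 libraries, which leave a group with 1 library, made 0 calls in the whole table, with log2 fold changes for this region of 1.55 to 1.78.

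Within 50 kb of the Gm5627 region lie 6 other tested regions, and 0 passed. The nearest protein-coding start is that of Amotl2, an angiomotin family scaffold protein of the Hippo pathway, 19713 bp away. Its region held 428 and 346 scaled reads in mdx, against 398 and 458 in wild type, with overlapping groups (log2 fold change -0.15, SE 0.18; limma, adjusted p = 0.667). A region 13383 bp from the centre, on the Amotl2 side, held 75 and 45 in mdx and 18 and 58 in wild type, with overlapping groups. Whether the Gm5627 and Amotl2 regions differ in fold change was not tested.

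The region second in fold lies inside Gm5084, a lincRNA gene, on chromosome 13 from 60207199 to 60207657. It held 112 and 110 scaled reads in mdx, against 71 and 38 in wild type, and the wild type libraries stood apart from each other. The difference missed the threshold (log2 fold change 1.08, SE 0.34; limma, adjusted p = 0.085). Adjusted p-values under the other settings with all libraries ran from 0.00955 to 0.132. The region was called higher with promoter medians set equal (0.0407), with only regions of mean 50 or more kept (0.042), with the replicate number as a block (0.0395), with the crossed block (0.00955) and by voom on the recovered reads (0.0286). In the same order, these settings called 5.97%, 11%, 8.33%, 16.5% and 6.02% of all tested regions, against 4.18% as reported. The crossed block and voom were chosen after seeing the data. Leaving out wild type replicate 1 gave a log2 fold change of 1.52, and leaving out replicate 2 of that group gave 0.64. The only other region within 50 kb lies at Gas1, a growth arrest gene and hedgehog co-receptor, 29955 bp away, and held 474 and 568 in mdx and 701 and 458 in wild type, with overlapping groups.

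**Figure D2:**
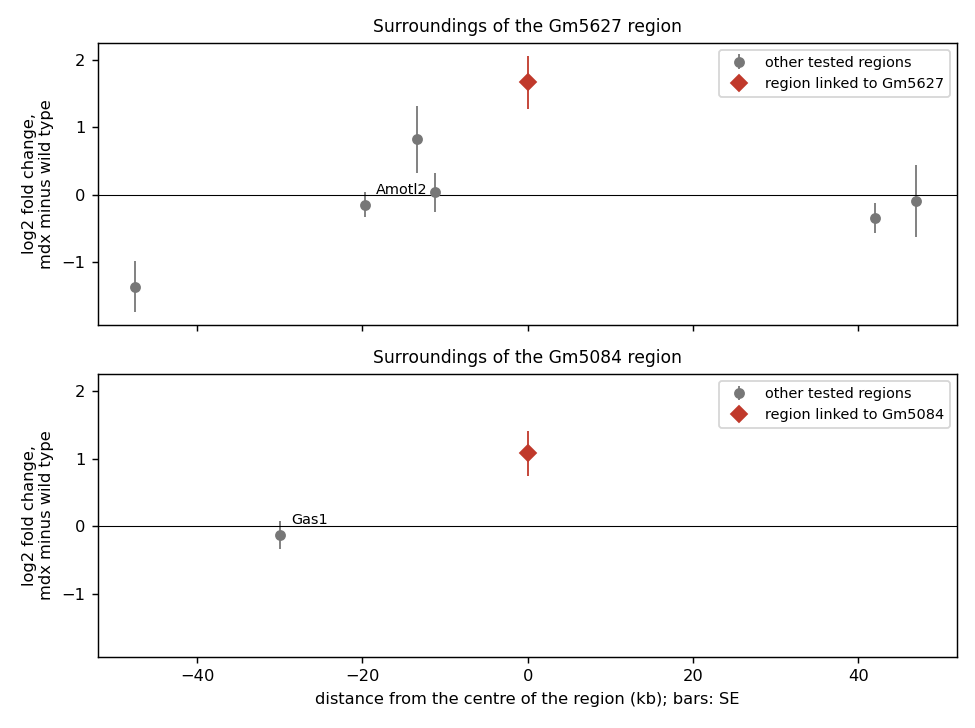
Log2 fold change, mdx minus wild type (vertical axis, bars are SE), of tested regions within 50 kb of the regions linked to Gm5627 and Gm5084, by distance in kb from their centres (horizontal axis). The Gm5627 region stands at 1.67 and the Amotl2 region at -0.15; the Gm5084 region stands at 1.08 and the Gas1 region at -0.13.

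Among the other lincRNA regions, that of Gm5784 spans its start, on chromosome 12 from 19387612 to 19387960. It held 36 and 80 scaled reads in mdx, against 29 and 26 in wild type. The groups did not overlap, but mdx replicate 2 alone was high, and the difference did not pass (log2 fold change 0.94, SE 0.43; limma, adjusted p = 0.215). Without mdx replicate 2 the log2 fold change was 0.38, and without mdx replicate 1 it was 1.51. The other 14 regions within 50 kb of it held 0 to 13 scaled reads per library. How the authors' processing treated reads that match several loci is not stated.

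The region inside 6030469F06Rik, on chromosome 12 from 31170788 to 31171146, was the third most accessible lincRNA or processed transcript region per kb, at 677.4 scaled reads. It held 347 and 225 scaled reads in mdx, against 198 and 200 in wild type. The groups did not overlap, but the mdx libraries lay far apart, and the difference missed the threshold (log2 fold change 0.49, SE 0.23; limma, adjusted p = 0.235). Without mdx replicate 1 the log2 fold change was 0.18, and without mdx replicate 2 it was 0.80.

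Besides Gm5784, 3 lincRNA genes had 2 regions each. At D830013O20Rik the region before the start held 79 and 64 scaled reads in mdx, against 56 and 52 in wild type, with the groups apart (log2 fold change 0.39, SE 0.31; limma, adjusted p = 0.49). The region inside the gene held 10 and 31 in mdx and 28 and 31 in wild type (-0.70, SE 0.55; limma, adjusted p = 0.479), with mdx replicate 1 alone low. Without that library the log2 fold change was 0.07. The pair thus had opposite signs, and neither passed.

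At 4930408O17Rik the outer region, 5071 bp before the start, held 48 and 40 scaled reads in mdx, against 34 and 27 in wild type (log2 fold change 0.52, SE 0.38; limma, adjusted p = 0.452). The region inside the gene held 7 and 13 in mdx and 5 and 16 in wild type, with overlapping groups (0.07, SE 0.73; limma, adjusted p = 0.968). Both lie in Clmn, which encodes calmin, whose start is the nearest coding start.

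At Dbpht2, a DNA binding protein gene by RefSeq, the region inside the deposited gene lies past the gene's RefSeq end. It held 29 and 45 in mdx and 34 and 23 in wild type (log2 fold change 0.36, SE 0.43; limma, adjusted p = 0.657). Leaving out 1 library gave 0.050 (without mdx replicate 2) to 0.67 (without mdx replicate 1). The region before the start held 8 and 10 in mdx and 9 and 10 in wild type, near the filter. The groups overlapped in both. The Gm28465 region held 35 and 17 in mdx and 12 and 23 in wild type, also overlapping (0.53, SE 0.54; limma, adjusted p = 0.6). Leaving out mdx replicate 1 gave a log2 fold change of 0.027, and leaving out replicate 2 of that group gave 1.03. It has 0 other regions within 50 kb.

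The 4 polymorphic pseudogenes held 6 regions, all tested. None passed in limma or in voom, and 1, that of Casp16-ps, had an unadjusted p under 0.05 (limma). Of all tested regions, 4.18% passed and 23% had an unadjusted p under 0.05 (limma). All 6 log2 fold changes were above 0, from 0.01 to 0.55, with a median of 0.20. With distal medians set equal, 4 of the 6 turned negative. Mx2 encodes an interferon-induced GTPase of the dynamin family that is inactive in many laboratory strains. The region before its start, on chromosome 16 from 97534933 to 97535572, held 287 and 281 scaled reads in mdx, against 209 and 217 in wild type. The libraries of each group lay close together and the groups did not overlap, with means of 284.0 ± 4.24 in mdx and 213.0 ± 5.66 in wild type (SD, n = 2 each). The difference did not pass (log2 fold change 0.41, SE 0.19; limma, adjusted p = 0.228). The narrow region on the Mx2 start, 127 bp wide, held 43 and 22 in mdx and 31 and 22 in wild type, with overlapping groups (0.23, SE 0.46; limma, adjusted p = 0.81).

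Cxcl11 encodes a chemokine ligand of Cxcr3. Its region, on chromosome 5 from 92369085 to 92369560, lies 3838 bp before the deposited start and inside Art3. It held 267 and 220 scaled reads in mdx, against 249 and 210 in wild type, with overlapping groups (log2 fold change 0.08, SE 0.21; limma, adjusted p = 0.853). The neighbouring chemokine genes of the same receptor, Cxcl10 and Cxcl9, had regions with log2 fold changes of -0.12, -0.19 and 0.15, and the groups overlapped in the Cxcl10 regions. At Cxcl9 the values were 286 and 249 in mdx and 241 and 239 in wild type, with the groups apart. None of the 3 regions passed (limma and voom), and 0 had an unadjusted p under 0.05 (limma), against 23% of all tested regions.

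Atp10d encodes a phospholipid flippase ATPase that is cut short in the C57BL/6 strain. The region on its start, on chromosome 5 from 72203026 to 72203622, was the most accessible of the pseudogene regions, at 685.0 scaled reads per kb. It held 350 and 474 scaled reads in mdx, against 390 and 419 in wild type, with the wild type libraries between the mdx ones (log2 fold change 0.01, SE 0.19; limma, adjusted p = 0.981). The region 1268 bp before the start held 174 and 156 in mdx and 137 and 155 in wild type (0.18, SE 0.23; limma, adjusted p = 0.687).

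Casp16-ps is a pseudogene, by the deposited type and by RefSeq, of the caspase family of proteases. Its region, on chromosome 17 from 23550176 to 23550753, lies past the gene's end and over the transfer RNA gene. It held 149 and 166 scaled reads in mdx, against 109 and 105 in wild type, with the groups apart, and the difference missed the threshold (log2 fold change 0.55, SE 0.24; limma, adjusted p = 0.191). The Fabp3-ps1 region, by a processed copy of the gene for the fatty acid binding protein of heart and skeletal muscle, held 29 and 19 in mdx and 26 and 23 in wild type, with overlapping groups (-0.06, SE 0.46; limma, adjusted p = 0.958).

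The Ifi30 region, on chromosome 8 from 70766693 to 70767005, lies just before the start of the gene for a lysosomal thiol reductase of antigen processing that interferon gamma induces. It held 30 and 40 scaled reads in mdx, against 31 and 30 in wild type, with overlapping groups (log2 fold change 0.18, SE 0.40; limma, adjusted p = 0.832). Its level of 105.0 scaled reads per kb was below the median of all regions. The TEC locus Gm9978 held 21 and 16 in mdx and 17 and 20 in wild type, with overlapping groups (log2 fold change -0.01, SE 0.50; limma, adjusted p = 0.996).

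**Figure D3:**
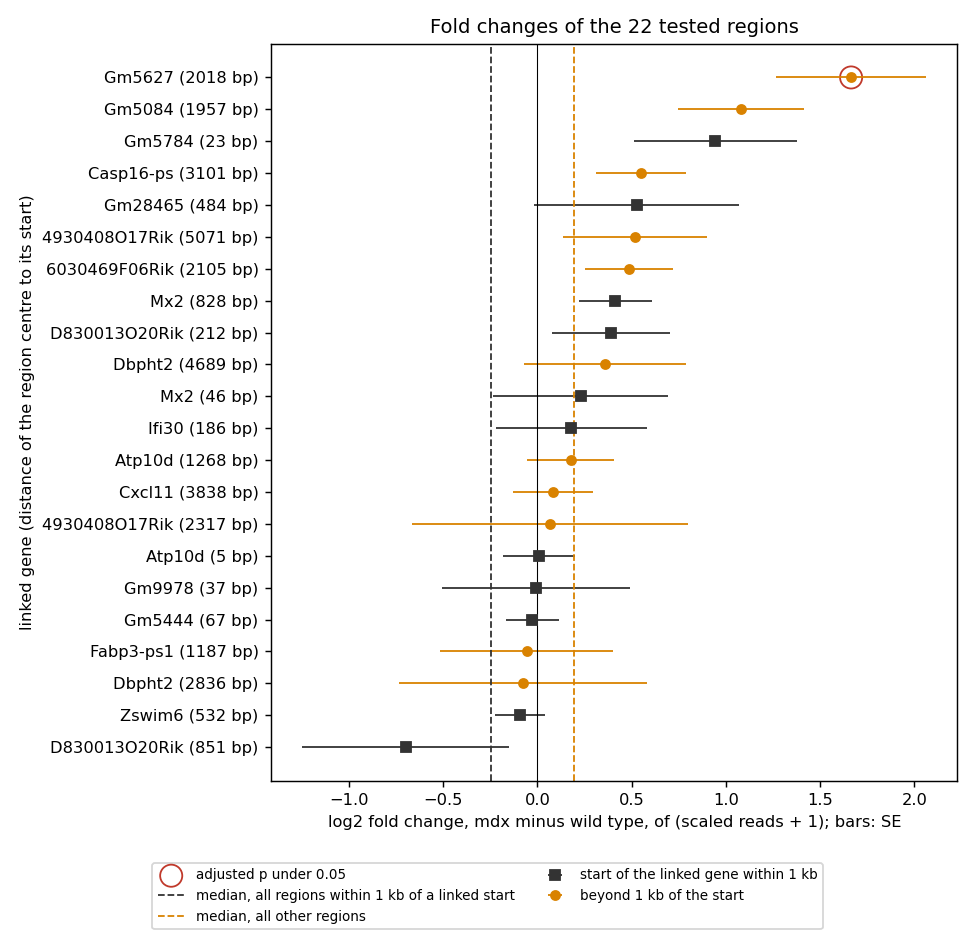
Log2 fold change, mdx minus wild type, with SE bars (horizontal axis) of the 22 tested regions (vertical axis), with squares for regions within 1 kb of the linked start and circles for the others. The ringed Gm5627 region, at 1.67, is the only one past the threshold; dashed lines mark the medians of all regions within 1 kb of a linked start (-0.25) and of all others (0.19).

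The median log2 fold change of the 22 regions was 0.20, against -0.01 over all tested regions, and 16 of the 22 lay above 0, against 49.4% of all. With distal medians set equal, which moved the median of all regions to -0.35, that of the 22 was -0.13, and with promoter medians set equal, which moved it to 0.19, that of the 22 was 0.40. The 11 tested regions within 1 kb of the linked start had a median of 0.18, against -0.25 for all such regions. Of the latter, 10128 of 11292 tested belong to named protein_coding genes (median -0.26). All regions within 1 kb of a linked start, untested ones included, are also wider (median 523 bp) and higher (median value 112) than the 13 regions here (312 bp and 32.75). The median of the 11 was -0.16 with distal medians set equal and 0.011 with no filter (13 regions) or with a mean of at least 50 (5 regions). Without 1 library it was 0.071 (mdx replicate 1), 0.18 (mdx replicate 2), 0.085 (wild type replicate 1) or 0.10 (wild type replicate 2). Of the 11, 0 passed in limma or voom, with 1 at an unadjusted p under 0.05 (limma). Of all 11292 tested regions within 1 kb, 2.42% passed in either direction (limma), and 2372 had an unadjusted p under 0.05 (limma). The 11 beyond 1 kb had a median of 0.36 (0.02 with distal medians set equal), against 0.19 for all regions beyond 1 kb and 0.06 for those with a linked gene, and 1 rose, where 4.65% of all regions beyond 1 kb rose and 5.09% passed in either direction. These differences between medians were not tested.

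By class, the 14 tested lincRNA and processed transcript regions had a median of 0.37, with 1 higher and 0 lower. The 7 tested pseudogene regions had a median of 0.18, with 0 higher and 0 lower. In autosomal regions of the same 6 deposited gene types that carry no gene name, 3.28% of 1705 tested rose and 0.645% fell, with a median of 0.06. By type these medians were 0.02 (lincRNA, 782 tested), -0.03 (processed transcripts, 118) and 0.04 (TEC, 335). They were 0.15 for processed pseudogenes (458), 0.34 for transcribed processed pseudogenes (11) and 0.01 for the 1 polymorphic pseudogene region. Regions with a RefSeq protein-coding start within 1 kb, 3 of them tested, had a median of 0.18 and the other 19 of 0.23. The sign of the first median turned with distal medians set equal (-0.16) and without mdx replicate 2 (-0.023), and it was 0.38 without mdx replicate 1.

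**Figure D4:**
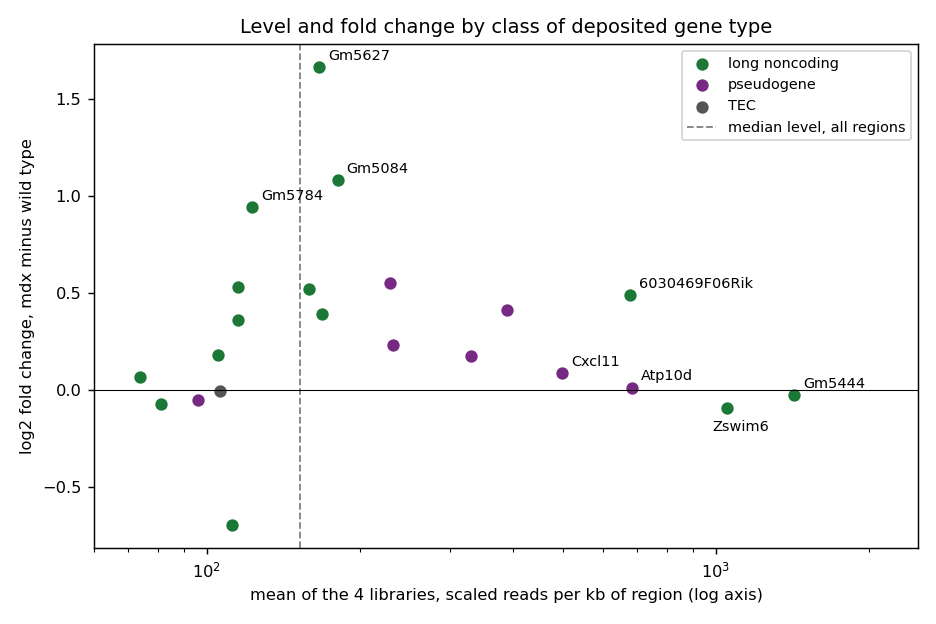
Mean level over the 4 libraries in scaled reads per kb of region (horizontal log axis) and log2 fold change, mdx minus wild type (vertical axis), of the 22 tested regions, coloured by class of deposited gene type, with a dashed line at the median level of all regions, 152.1. The 2 regions with the highest levels, Gm5444 and Zswim6, lie at -0.03 and -0.09, and the largest fold changes, Gm5627, Gm5084 and Gm5784, lie near the median level.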

How the data were processed

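ATAC-seq libraries of quiescent satellite cells, 2 from mdx and 2 from wild type mice, were compared. The submitters' processing notes name mm10 as build and, in no stated order, Trimmomatic 0.33, DESeq, DESeq2, STAR 2.5.3a, MACS2 2.1.0 and Picard 2.9.0. What each did, how duplicates and the Tn5 offset were handled, and whether libraries were pooled to call regions is not stated. In the deposited table of regions the authors give a whole-number score per library, which from the values themselves is a read number multiplied by 1 factor per library and rounded: the whole numbers that are missing up to 400 (111 and 56 in mdx replicates 1 and 2, and 73 in wild type replicate 1) are those that factors of 1.382, 1.162 and 1.222 skip. A factor of 0.492 fits wild type replicate 2 only approximately. The deposited fraction of each region inside its gene, per the file headers, served only to place regions. Coordinates are those of the file, which does not say whether its starts are 0-based.

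Regions reaching 10 in 2 or more libraries, 33161 in all, entered limma 3.58.1 (R 4.3.3, with a mean-variance trend) on log2(value + 1), with group as the only term and Benjamini-Hochberg adjustment over all of them at a threshold of 0.05. Fold changes on this scale understate those of low regions. The variance of each region is drawn toward that of all tested regions of like level. An SE can therefore differ from what the region's own 2 libraries per group give. The test was tried on simulated data with the 35019 regions. A 2-fold change was recovered in 0.0% of the changed regions, a 4-fold change in 87.5% and an 8-fold change in 92.0%. Of the unchanged regions, 0 were called. In each simulation 200 regions were changed, all regions had the same dispersion (0.0215), and the promoter share was not shifted between groups. In the data 23% of tested regions had an unadjusted p under 0.05 (limma), so these rates need not hold there. Starts, biotypes and promoter windows come from RefSeq GRCm38.p6. Named are all members past the threshold, the 5 with the highest mean per kb in each class, genes with several members and the listed genes; as there are only 24, the remaining ones are named too. Replicate numbers were taken only to name libraries, as no label ties equal numbers to a shared day or animal. The deviations of same-numbered libraries from their group means correlated at -0.109. With 2 libraries per group this cannot decide whether equal numbers share anything. Members, lists and tests were chosen with earlier results of these data known. The closing section names the alternatives.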

Additional observations from a re-analysis of the deposited data

How the results depend on the processing

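The count of regions higher in mdx, 1 of 22, became 2 with promoter medians set equal, the replicate block, voom and the crossed replicate block (the last 2 chosen after seeing the data). Calls in the whole table went up as well under these settings, to 5.97%, 8.33%, 6.02% and 16.5% of tested regions, against 4.18% as reported. The count became 0 with no filter on low values, which called 1.31%, where Gm5627 had a log2 fold change of 1.67 (limma, adjusted p = 0.0697). With regions of mean 50 or more it was 1 of 10, Gm5084, as Gm5627 lies below that mean. That setting called 11% of 17549 tested regions. The counts over lincRNA and processed transcript regions, over regions with no coding start within 1 kb and over those beyond 1 kb of the linked start moved alike, to 2 or 0. Without 1 library each of these counts was 0, with 0 calls in the whole table by limma and 2305 to 5569 at an unadjusted p under 0.05. The count of lower regions was 0 under every alternative run. Among all 33161 tested regions, 292 were called lower as reported. With the same filter, 159 were lower with promoter medians set equal, 2067 with the crossed block and 3465 with distal medians set equal. With no filter on low values, 54 of 35019 were lower. Whether the 22 regions differ from all tested regions in lower calls was not tested. Medians with promoter medians set equal were 0.40 (all), 0.57 (lincRNA and processed transcripts), 0.37 (pseudogenes), 0.43 (no coding start) and 0.56 (beyond 1 kb). With distal medians set equal they were -0.13, 0.039, -0.16, -0.11 and 0.022, and -0.16 within 1 kb. The median of regions with no coding start was 0.39 over the 9 with a mean of 50 or more. Without 1 library the medians ran from 0.20 to 0.25 (all), 0.21, without mdx replicate 2, to 0.35 (lincRNA and processed transcripts), 0.063, without wild type replicate 2, to 0.25 (pseudogenes), 0.071 to 0.18 (within 1 kb), 0.25 to 0.48 (beyond 1 kb), -0.023 to 0.38 (coding start within 1 kb) and 0.18 to 0.26 (no coding start). With a mean of 50 or more, the 1 remaining region with a coding start had -0.09. With 1 region per gene the pseudogene median was 0.084 over 5 genes and that of lincRNA and processed transcripts 0.39 over 11. Coding starts within 0.5 kb or 2 kb gave the same medians as 1 kb. Pseudocounts of 0.1 and 5 and the fit on autosomes alone turned no sign and changed no call among the 22.

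Signs of single regions turned in 18 of 252 fits with all libraries, in regions that did not pass. With distal medians set equal the log2 fold changes were -0.16 and -0.33 (Atp10d), -0.25 (Cxcl11), -0.16 (Ifi30), -0.27 (4930408O17Rik inside the gene) and -0.11 (Mx2 start). With promoter medians set equal they were 0.19 (Gm9978), 0.14 (Fabp3-ps1), 0.12 (Dbpht2 before the start), 0.17 (Gm5444) and 0.11 (Zswim6). Cyclic loess gave 0.07 (Dbpht2), 0.27 (Gm5444) and 0.28 (Zswim6), scaling by totals 0.037 (Gm9978) and 0.021 (Gm5444), and voom 0.034 (Dbpht2) and -0.21 (4930408O17Rik). Setting medians equal moves the log2 fold changes of all tested regions by the same amount. Scaling by totals, which applies a factor to each library, moved the median of all tested regions from -0.010 to 0.036. The cause of the turns with cyclic loess and voom was not tested.

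Without 1 library the ranges that crossed 0 were -0.21 to 0.23 (Atp10d start), -0.056 to 0.22 (Cxcl11), -0.023 to 0.38 (Ifi30), -0.19 to 0.18 (Gm9978), -0.35 to 0.24 (Fabp3-ps1), -1.47 to 0.071 (D830013O20Rik inside), -0.22 to 0.069 (Dbpht2), -0.68 to 0.82 (4930408O17Rik inside) and -0.24 to 0.70 (Mx2 start). Ranges on 1 side of 0 that moved by over 1.5 times, beside those in the report, were 0.24 to 0.54 (D830013O20Rik before the start), 0.088 to 0.26 (Atp10d before the start), -0.170 to -0.015 (Zswim6) and -0.040 to -0.013 (Gm5444). Calls in the whole table, 1095 higher and 292 lower, became 2108 and 653 with the block on replicate numbers, which the labels do not tie to a shared day or animal. The crossed block, tried because same-numbered libraries correlated at -0.109, gave 3394 and 2067. Regions under about 50 recovered reads in a library, the Gm5627 region included, carry the largest counting error.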

Other observations

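Around the 24 regions, 71 other regions lie within 50 kb, and 57 of these were tested. Of the 57, 0 passed in limma or in voom on recovered reads, and 9 had an unadjusted p under 0.05 (limma), where 4.18% and 23% of all tested regions did so in limma.

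Of the tested neighbours, 4 had a log2 fold change beyond 1 in size, and 0 of these passed. A lincRNA region with no gene name, 47474 bp from the Gm5627 region, held 26 and 20 scaled reads in mdx against 66 and 55 in wild type, opposite in sign to Gm5627 (log2 fold change -1.36, SE 0.38; limma, adjusted p = 0.0637). A region linked to a gene with no name, 33252 bp from the 6030469F06Rik region, held 94 and 56 in mdx and 27 and 31 in wild type (1.30, SE 0.38; limma, adjusted p = 0.0698). An unlinked region 41261 bp from the Fabp3-ps1 region held 198 and 148 in mdx and 61 and 104 in wild type (1.09, SE 0.30; limma, adjusted p = 0.0599). The groups were apart in each of these 3 and in the fourth, an unlinked region 20879 bp from the inner 4930408O17Rik region, which held 14 and 33 in mdx and 64 and 48 in wild type (-1.32; limma, adjusted p = 0.114). These 4 were chosen after their values were seen.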
